A study of Mus musculus with 17 samples.

Results

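Myeloid cells of the mouse brain were sorted as 2 populations, named µ and TAµ by the submitters, and profiled by RNA sequencing. The comparison reported here sets µ cells of transplanted adult mice against TAµ cells of control pups. It was chosen by sample title and uses 11 of the 17 libraries of the series, 3 of transplanted µ and 8 of P10 TAµ, over all 13769 genes that the authors' deposited table lists. Transplanted µ came from mice treated with BU and sampled 3 months after they received GFP Lin- cells, and the series title names hematopoietic stem and progenitor cells as the source. P10 TAµ came from control mice at postnatal day 10. The other 6 libraries, used only for side-by-side values, were transplanted TAµ from the same kind of recipients (3 libraries) and µ of control mice 5 months old (3 libraries). All 4 groups are listed as C57bl6/j brain. The labels spell out neither µ, TAµ nor BU, give no age for the recipients, and give no word on a GFP gate, so a share of host cells in transplanted µ cannot be told. Transplanted µ and P10 TAµ differ in sorted population, age and treatment at once, and these cannot be told apart. The design text speaks of triplicate mice, whereas 8 P10 libraries are listed. Nothing ties each library to its own animal, so p-values measure only the spread between libraries.

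Microglia are the macrophages that live in the brain tissue. They arise from the yolk sac, multiply in the first weeks after birth, when many have a rounded, phagocytic form, and then settle into a largely resting state in which they express P2ry12, Tmem119 and the transcription factor Sall1. After conditioning with a drug that kills dividing cells, blood-derived progenitors can enter the brain and settle there as macrophages, which take on part of the microglial programme. Border-associated macrophages of the meninges and vessels are a separate resident population marked by Mrc1, Lyve1 and Cd163.

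Fold changes are given throughout as log2 of transplanted µ minus P10 TAµ, so a positive value means more RNA in transplanted µ. Both they and the adjusted p-values are limma output that the authors deposited. A value after ± is a standard error, worked back from the fold change and its p. Genes are called higher or lower where the adjusted p is under 0.05. Levels are log2 group means derived from the average expression and the fold changes of the same table, are not scaled to gene length and are therefore compared only between groups, never between genes. In these sorted bulk samples fewer cells of a type and less RNA per cell cannot be told apart. Values per library, and so their overlap between groups, are not analysed here.

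Of the 13769 genes, 2792 differed between transplanted µ and P10 TAµ in the authors' deposited table, a share of 20.3%. Higher in transplanted µ were 1051 genes (7.63%) and lower were 1741 (12.6%). Of the calls 37.6% were higher as deposited, against 62.0% when every fold change was set relative to the median gene, which lay at -0.29. Counts of gene groups are therefore given on both scales below, as deposited and relative to the median gene. The falls were the larger changes: 827 lower genes differed by at least 3 log2 units, against 87 higher genes. Of the lower genes 413 (23.7%) had a transplanted µ level within 2 log2 units of the lowest levels the table can show, near -4.71. For these the fall is known in direction but its size depends on how counts of 0 were treated. Only 22 of the higher genes had a P10 TAµ level that low. Over all genes, 649 lay that low in transplanted µ and 91 in P10 TAµ. P10 TAµ gave 8 of the 17 libraries and the gene filter is not stated. The part of that filter in this imbalance was not tested.

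**Figure D1:**
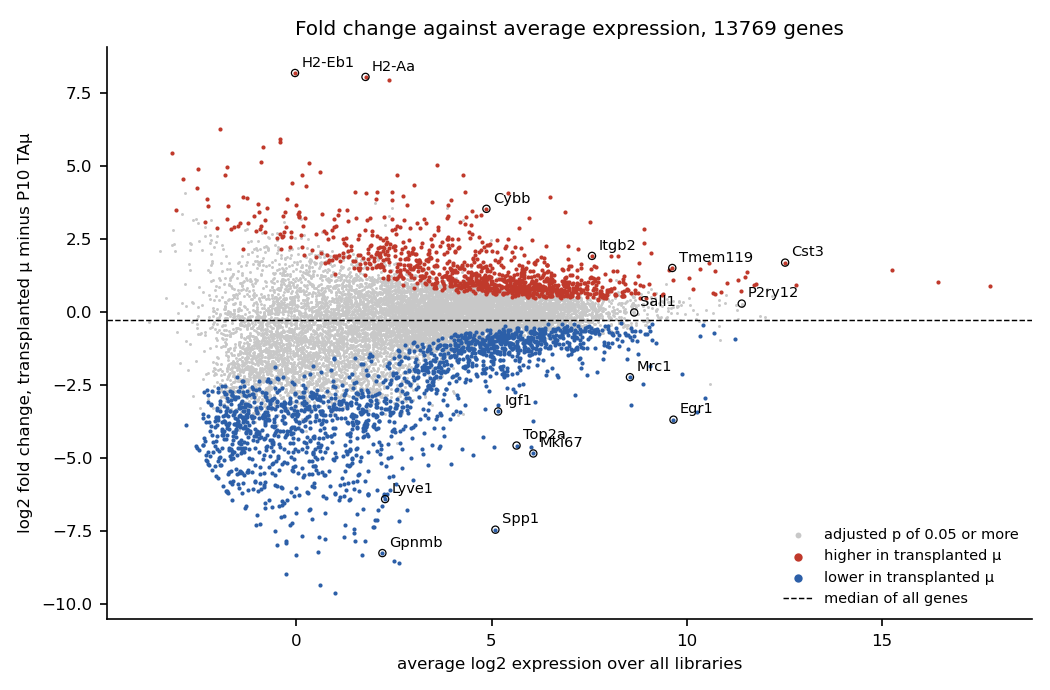
Each point is 1 of 13769 genes, with its average log2 expression over all 17 libraries on the x axis and its log2 fold change, transplanted µ minus P10 TAµ, on the y axis. Red points (1051) were higher and blue points (1741) lower at an adjusted p under 0.05, the dashed line is the median of all genes at -0.29, and the most strongly lowered genes sit at low average expression.

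Markers of the sorted cells were measured for 16 of 17 listed genes. The receptor gene of the colony stimulating factor that microglia need to survive, Csf1r, had derived levels of 11.95 in transplanted µ and 12.12 in P10 TAµ and a difference of -0.17 ± 0.14 (adjusted p = 0.394) per the authors' deposited table. The other pan-myeloid genes gave 0.43 ± 0.22 for Ptprc, 0.56 ± 0.26 for Itgam, 0.62 ± 0.30 for Aif1 and 0.25 ± 0.20 for Sfpi1, which encodes the transcription factor PU.1, and none of these passed the test per the authors' deposited table. Relative to the median gene, Ptprc, Itgam and Aif1 did pass. Both groups thus carried the myeloid transcripts their labels name.

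Genes of cell division were far lower in transplanted µ. Of 49 mitosis genes 48 were lower and 1, the separase gene Espl1 at -0.75 ± 0.35 (adjusted p = 0.133), did not pass, with a median of -5.19 per the authors' deposited table. Of 42 DNA replication genes 37 were lower and 5 did not pass, with a median of -3.58 per the authors' deposited table. Relative to the median gene, 48 and 34 were lower. The called shares, 98.0% and 88.1%, stand against 20.3% of all genes. Top2a, the topoisomerase that untangles chromosomes before they separate, had derived levels of 3.50 in transplanted µ and 8.09 in P10 TAµ. Its difference of -4.59 ± 0.34 is a level 24-fold lower (adjusted p = 1.4e-07) per the authors' deposited table. Mki67, whose protein coats mitotic chromosomes and marks cycling cells, fell from 8.72 to 3.86 on the derived log2 scale, a difference of -4.86 ± 0.44 (adjusted p = 1.3e-06) per the authors' deposited table. Neither gene was detectably different between transplanted µ and the 5-month controls, with 0.82 ± 0.55 (adjusted p = 0.295) for Top2a and 0.41 ± 0.66 (adjusted p = 0.678) for Mki67 per the authors' deposited table, a comparison in which 21.8% of all genes were called. The same genes stood 5.41 ± 0.45 and 5.27 ± 0.52 higher in P10 TAµ than in those controls, where 35.7% of all genes were called per the authors' deposited table. The P10 group is shared by these comparisons.

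The stretches before the starts of Top2a and Mki67 are shown because the mitosis genes fell together and many such genes carry the same short elements there. These are the CHR, written TTTGAA, which is bound by the complex that represses cell cycle genes in resting cells, and the CCAAT box. Sequences are the 250 bases before the start in RefSeq, build GRCm38.p6, Top2a at chr11:99024190-99024439 and Mki67 at chr7:135716380-135716629, both on the minus strand and printed in the direction of the gene, with either motif in capitals on either strand.
Top2a: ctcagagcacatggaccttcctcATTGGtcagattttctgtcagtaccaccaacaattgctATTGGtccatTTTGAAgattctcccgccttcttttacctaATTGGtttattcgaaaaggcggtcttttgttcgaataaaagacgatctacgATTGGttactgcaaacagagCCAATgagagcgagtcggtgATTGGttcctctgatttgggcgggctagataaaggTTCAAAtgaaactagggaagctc
Mki67: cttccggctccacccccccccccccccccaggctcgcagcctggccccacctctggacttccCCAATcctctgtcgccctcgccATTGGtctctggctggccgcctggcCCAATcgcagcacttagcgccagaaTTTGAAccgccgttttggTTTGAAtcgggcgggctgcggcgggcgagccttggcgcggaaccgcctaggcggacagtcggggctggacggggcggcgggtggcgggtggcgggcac
Counting the 250 bases before and the 50 after the start, a CHR was found in 27 of 38 mitosis genes with a window (71.1%), in 3 of 35 DNA replication genes (8.57%), in 11.5% of the 9437 genes of the table that have a window and in 17.9% of all 32851 windows. CCAAT was found in 28 of the 38 mitosis genes (73.7%), in 22 of the 35 replication genes (62.9%), in 38.6% of the table's genes and in 37.4% of all windows. An E2F site, written TTTCCCGC or TTTGGCGC, was found in 11 of the 35 replication genes (31.4%) and in 1 of the 38 mitosis genes. It was found in 3.12% of the table's genes with a window and in 1.56% of all windows. A motif match describes the letters of a window and is no evidence that a factor is bound there.

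Among replication genes, both subunits of ribonucleotide reductase, which makes the DNA building blocks, were lower. The large subunit gene Rrm1 had derived levels of 4.72 in transplanted µ and 6.90 in P10 TAµ and fell by 2.18 ± 0.26 (adjusted p = 1.52e-05) per the authors' deposited table. The small subunit gene Rrm2, which is made in S phase, had levels of -2.48 in transplanted µ and 5.38 in P10 TAµ and differed by -7.85 ± 0.83 (adjusted p = 5.33e-06) per the authors' deposited table. Its level in transplanted µ lies close to the lowest levels, so the size of this fall is uncertain. The helicase genes that open replication origins were lower to unequal degrees, with Mcm4 at -1.93 ± 0.28, Mcm6 at -2.71 ± 0.37, Mcm3 at -1.95 ± 0.31 and Mcm5 at -5.24 ± 0.97 per the authors' deposited table. The DNA ligase gene Lig1 was lower at -3.33 ± 0.41 (adjusted p = 2.5e-05) per the authors' deposited table. The most highly expressed members that did not pass were Rpa1, which coats single-stranded DNA, at -0.39 ± 0.25 and the polymerase subunit gene Pola2 at -0.49 ± 0.50 per the authors' deposited table.

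Of 19 genes of G1 control 4 were higher and 6 lower per the authors' deposited table (52.6% called, against 20.3% of all genes). Relative to the median gene, 7 were higher and 4 lower. Of the D-type cyclins, which start the cycle in response to growth signals, Ccnd1 was higher by 1.51 ± 0.24 (adjusted p = 0.000258) and Ccnd2 by 1.34 ± 0.40 (adjusted p = 0.0256), while Ccnd3 differed by -0.57 ± 0.82 (adjusted p = 0.65) per the authors' deposited table. Their kinase partners Cdk4 (-1.57 ± 0.49) and Cdk6 (-1.47 ± 0.44), the growth gene Myc (-1.92 ± 0.49) and the kinase inhibitor genes Cdkn2c (-5.46 ± 1.0) and Cdkn2d (-4.03 ± 1.31) were lower per the authors' deposited table. The retinoblastoma gene Rb1 was higher at 0.68 ± 0.16 and its relative Rbl1 lower at -1.19 ± 0.22 per the authors' deposited table. Cdk4 and Cdk6 did not pass relative to the median gene. The 4 higher genes were Ccnd1, Ccnd2, Rb1 and Cdkn1a.

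Cdkn1a encodes p21, an inhibitor of cyclin-dependent kinases that p53 switches on. Its derived levels were 8.36 in transplanted µ and 6.77 in P10 TAµ, with 5.42 in transplanted TAµ and 4.52 in adult control µ, and it was 1.59 ± 0.30 higher in transplanted µ than in P10 TAµ (adjusted p = 0.00112) per the authors' deposited table. The p53 response list had 28 measured genes, 7 higher and 3 lower per the authors' deposited table (35.7% called, against 20.3% of all genes). Its median was 0.12, and 9 were higher and 2 lower relative to the median gene. Trp53inp1, a p53-induced gene of autophagy and cell death, was higher by 2.11 ± 0.20 (adjusted p = 1.6e-06) and Phlda3, an inhibitor of the kinase Akt, by 2.62 ± 0.44 (adjusted p = 0.000451) per the authors' deposited table. Ccng1 was higher by 1.18 ± 0.21, Rrm2b, the p53-induced reductase subunit, by 1.66 ± 0.39, the death effector Bax by 1.04 ± 0.35 and Sesn1 by 0.60 ± 0.18 per the authors' deposited table. The lower members were Ckap2 at -6.20 ± 1.16 and Gtse1 at -4.81 ± 0.91, both also genes of dividing cells, and Trp53 itself at -0.62 ± 0.20 per the authors' deposited table. Trp53 did not pass relative to the median gene. Mdm2, the p53 target that degrades p53, differed by -0.26 ± 0.21 (adjusted p = 0.385) and Btg2 by -0.15 ± 0.32 (adjusted p = 0.772) per the authors' deposited table. The 250 bases before Ccng1 (GRCm38.p6, chr11:40755287-40755536, minus strand, RefSeq) are shown with the p53 half-site in capitals. They are shown because 9 of 20 p53 response genes with a window had such a half-site (45%). Among the table's genes with a window 6.75% had one, and 8.36% of all windows did.
Ccng1: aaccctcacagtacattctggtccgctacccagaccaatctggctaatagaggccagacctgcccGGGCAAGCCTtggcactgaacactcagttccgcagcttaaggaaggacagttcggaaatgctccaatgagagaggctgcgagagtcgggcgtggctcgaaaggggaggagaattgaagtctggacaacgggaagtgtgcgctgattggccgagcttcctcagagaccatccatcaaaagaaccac
Phlda3, the other member chosen for its small adjusted p, had no half-site in this window.

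More homeostatic microglia genes were higher than lower in transplanted µ. Of 36 measured genes 13 were higher and 4 lower per the authors' deposited table (47.2% called, against 20.3% of all genes). Their median was 0.50, and 22 were higher and 2 lower relative to the median gene. Sall1, which microglia express and most other macrophages lack, had derived levels of 9.18 in transplanted µ and 9.21 in P10 TAµ and a difference of -0.03 ± 0.19 with a 95% interval from -0.43 to 0.38 (adjusted p = 0.937) per the authors' deposited table. In transplanted TAµ its level was 5.87, -3.34 ± 0.32 from P10 TAµ (adjusted p = 1.46e-06) per the authors' deposited table, a comparison in which 25.7% of all genes were called. The purinergic receptor gene P2ry12 had levels of 12.03 in transplanted µ and 11.75 in P10 TAµ and a difference of 0.28 ± 0.22 (adjusted p = 0.382), and the fractalkine receptor gene Cx3cr1 one of 0.23 ± 0.17 (adjusted p = 0.345) per the authors' deposited table. Neither passed as deposited, and Cx3cr1 did relative to the median gene. Siglech, a sialic acid receptor, differed by 0.62 ± 0.22 (adjusted p = 0.059) per the authors' deposited table.

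Several genes of mature microglia were higher in transplanted µ. Tmem119, a membrane protein that appears as microglia mature, had derived levels of 10.70 in transplanted µ and 9.21 in P10 TAµ and was 1.5 ± 0.22 higher (adjusted p = 0.00012) per the authors' deposited table. Selplg, the P-selectin ligand, was higher by 2.01 ± 0.24 (adjusted p = 1.41e-05), and Cst3, the secreted protease inhibitor cystatin C, by 1.68 ± 0.29 (adjusted p = 0.000489) per the authors' deposited table. Tgfbr1, a receptor for the TGF-beta signal that maintains microglia, was higher by 1.45 ± 0.15 (adjusted p = 4.85e-06), and the phagocytic receptor gene Mertk by 0.93 ± 0.15 per the authors' deposited table. Upk1b, with levels of 5.71 in transplanted µ and 1.37 in P10 TAµ, showed the largest rise of the list at 4.34 ± 0.87 (adjusted p = 0.00179) per the authors' deposited table. The fructose transporter gene Slc2a5 was higher by 0.95 ± 0.21 per the authors' deposited table. Among the 4 lower genes were Gpr165 at -2.19 ± 0.20, the lens crystallin gene Crybb1 at -1.19 ± 0.32 and the purinergic receptor gene P2ry6 at -0.76 ± 0.24 per the authors' deposited table. P2ry6 did not pass relative to the median gene.

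Of 30 measured transcription factors of the myeloid lineage, 5 were higher and 4 lower, with a median of 0.04 per the authors' deposited table, and 7 were higher and 1 lower relative to the median gene. The called share of 30.0% stands against 20.3% of all genes. Mef2a, a transcription factor of the MEF2 family, was higher by 0.95 ± 0.17 (adjusted p = 0.000648) per the authors' deposited table. Lower were Klf2 at -4.90 ± 1.67, Zbtb46 at -4.53 ± 1.10, Zeb2 at -0.51 ± 0.17 and Maf at -0.42 ± 0.14 per the authors' deposited table. Of these only Zbtb46 passed relative to the median gene. Mef2c differed by -0.21 ± 0.17 (adjusted p = 0.403) per the authors' deposited table.

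Amoeboid microglia of the developing brain express a set of genes, many of which return in microglia around amyloid plaques. Of 30 measured 11 were lower and 3 higher per the authors' deposited table (46.7% called, against 20.3% of all genes). Their median was -0.95, and 10 were lower and 6 higher relative to the median gene. Spp1, which encodes the matrix protein osteopontin, had derived levels of 1.23 in transplanted µ and 8.70 in P10 TAµ and was 177-fold lower, at -7.47 ± 1.02 (adjusted p = 6.32e-05) per the authors' deposited table. Lipoprotein lipase, Lpl, was lower at -3.75 ± 0.45 (adjusted p = 2.01e-05) and the growth factor gene Igf1 at -3.42 ± 0.47 (adjusted p = 6.51e-05) per the authors' deposited table. Gpnmb, a glycoprotein of lipid-laden macrophages, had levels of -2.60 in transplanted µ and 5.67 in P10 TAµ and differed by -8.27 ± 0.88 (adjusted p = 5.6e-06) per the authors' deposited table, an uncertain size so close to the lowest levels. The cysteine protease genes Ctsl (-2.13 ± 0.20) and Ctsb (-0.93 ± 0.17), the integrin gene Itgax (-2.56 ± 0.60), the fatty acid carrier gene Fabp5 (-3.13 ± 0.89) and the cytokine gene Csf1 (-2.11 ± 0.48) were also lower per the authors' deposited table. The 3 higher members were the receptor kinase gene Axl at 2.06 ± 0.36, the mitochondrial membrane protein gene Tspo at 1.59 ± 0.40 and the aspartic protease gene Ctsd at 0.90 ± 0.18 per the authors' deposited table. Tyrobp, the adaptor of Trem2, differed by 0.16 ± 0.27 (adjusted p = 0.707) and Cd68 by 0.14 ± 0.16 (adjusted p = 0.548) per the authors' deposited table.

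Most genes known from marrow-derived macrophages of the brain were higher. Of 22 measured 14 were higher and 1 lower per the authors' deposited table (68.2% called, against 20.3% of all genes). Their median was 1.34, and 15 were higher relative to the median gene. The lower gene was Plac8 at -3.69 ± 1.21, near the lowest levels in transplanted µ per the authors' deposited table, and it did not pass relative to the median gene. Cybb, the catalytic subunit of the oxidase that makes superoxide, had derived levels of 6.58 in transplanted µ and 3.05 in P10 TAµ and was 3.52 ± 0.43 higher, or 11.5-fold (adjusted p = 2.24e-05) per the authors' deposited table. Lysozyme, Lyz2, was higher by 1.40 ± 0.20 (adjusted p = 0.00012), the adhesion molecule gene Vcam1 by 3.02 ± 0.56 (adjusted p = 0.00105) and the lectin receptor gene Clec12a by 4.11 ± 0.77 (adjusted p = 0.00105) per the authors' deposited table. Ms4a6c was higher by 2.11 ± 0.39, Ms4a6b by 1.26 ± 0.17, the nucleic acid sensor gene Tlr8 by 2.54 ± 0.64 and Axl by 2.06 ± 0.36 per the authors' deposited table. Ms4a7, a membrane gene of blood-derived brain macrophages, differed by 1.59 ± 0.64 (adjusted p = 0.084) per the authors' deposited table and passed only relative to the median gene.

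Transplanted µ was also set against transplanted TAµ, a comparison in which 6.49% of all genes were called, and Cybb, Lyz2 and Axl were lower in transplanted µ. Cybb differed between these fractions by -3.15 ± 0.38 (adjusted p = 9.44e-05), Lyz2 by -1.86 ± 0.25 (adjusted p = 0.00029) and Axl by -3.26 ± 0.36 (adjusted p = 5.97e-05) per the authors' deposited table. Apoe, the lipid carrier gene, had derived levels of 10.14 in transplanted µ, 10.22 in P10 TAµ, 14.11 in transplanted TAµ and 6.66 in adult control µ. Between transplanted µ and P10 TAµ it differed by -0.08 ± 0.35 (adjusted p = 0.9) per the authors' deposited table, and its 95% interval ran from -0.82 to 0.67.

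Border-associated macrophage genes were lower in 10 of their 11 calls. Of 19 measured 10 were lower and 1 higher per the authors' deposited table (57.9% called, against 20.3% of all genes). Their median was -2.24, and 7 were lower and 1 higher relative to the median gene. Mrc1, the mannose receptor, had derived levels of 7.56 in transplanted µ and 9.81 in P10 TAµ, with 10.68 in transplanted TAµ and 4.01 in adult control µ, and differed by -2.24 ± 0.29 (adjusted p = 4e-05) per the authors' deposited table. The endocytic adaptor gene Dab2 was lower at -1.62 ± 0.34 (adjusted p = 0.00238), the hyaluronan receptor gene Lyve1 at -6.42 ± 1.49 (adjusted p = 0.00561) and the haemoglobin scavenger receptor gene Cd163 at -3.45 ± 1.14 (adjusted p = 0.0395) per the authors' deposited table. Cd163 missed the threshold relative to the median gene, with an adjusted p of 0.0533. The 1 higher gene was the scavenger receptor Stab1 at 0.53 ± 0.18 (adjusted p = 0.042) per the authors' deposited table. The platelet factor gene Pf4, at -1.18 ± 0.71 (adjusted p = 0.243), and the fatty acid receptor gene Cd36, at -1.34 ± 0.61 (adjusted p = 0.126), did not pass per the authors' deposited table.

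**Figure D2:**
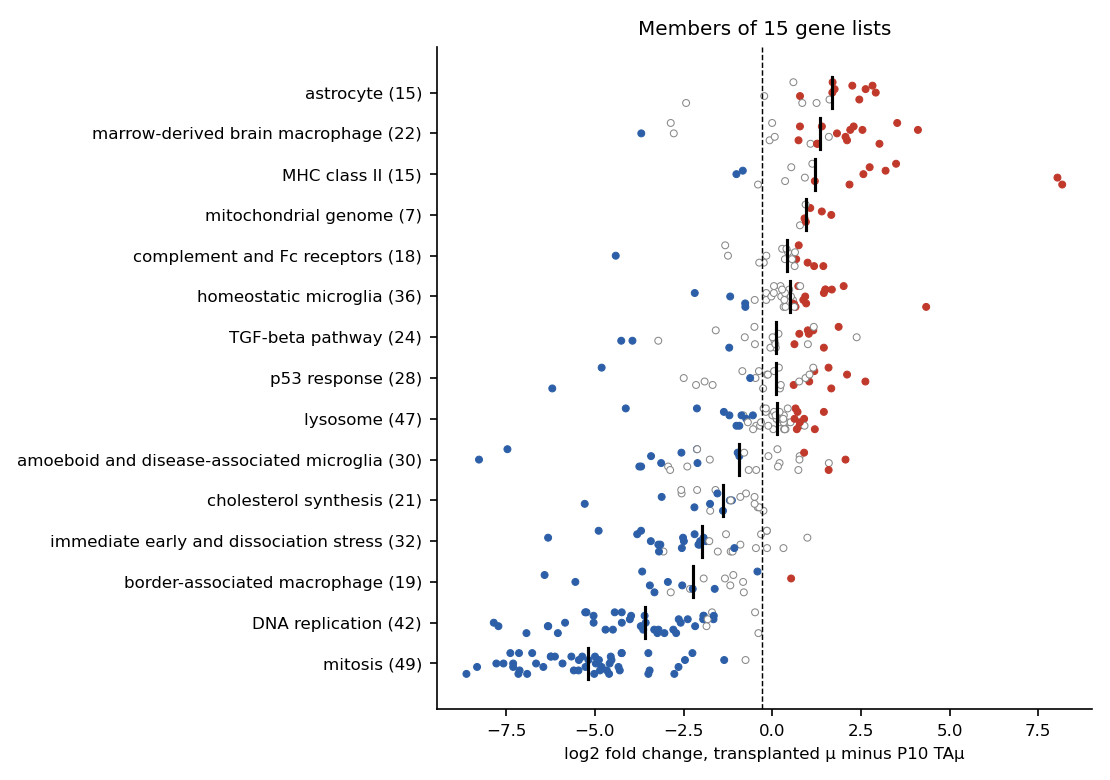
Each row is a gene list with its number of measured genes in brackets, and each point is 1 gene at its log2 fold change, transplanted µ minus P10 TAµ (x axis). Filled points were higher (red) or lower (blue) at an adjusted p under 0.05, open points did not pass, black bars are list medians and the dashed line is the median of all genes at -0.29; of the 15 lists drawn, out of 38, medians run from -5.19 for mitosis to 1.69 for astrocyte.

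MHC class II molecules present antigen to T cells, and their genes were among the largest rises. Of 15 genes of the pathway 8 were higher and 2 lower per the authors' deposited table (66.7% called, against 20.3% of all genes). Their median was 1.20, and 10 were higher and 1 lower relative to the median gene. The chain genes H2-Aa, with derived levels of 5.40 in transplanted µ and -2.64 in P10 TAµ, and H2-Eb1, with levels of 4.29 in transplanted µ and -3.89 in P10 TAµ, were higher by 8.04 ± 1.12 (adjusted p = 7.81e-05) and 8.17 ± 0.96 (adjusted p = 1.43e-05) per the authors' deposited table. The P10 level of H2-Eb1 lies near the lowest levels the table can show and that of H2-Aa just above them, so the sizes of these rises are uncertain. H2-Ab1 was higher by 2.57 ± 0.63, with a P10 level of 2.19 per the authors' deposited table. The genes that load peptide were higher too, H2-DMa by 3.19 ± 0.26 (adjusted p = 5.1e-07) and H2-DMb1 by 2.74 ± 0.34 (adjusted p = 2.68e-05), as was Cd74, which escorts class II chains through the cell, by 2.18 ± 0.36 (adjusted p = 0.000397) per the authors' deposited table. Of the proteases and reductases that cut antigen, Ctss was higher by 1.20 ± 0.23, whereas Lgmn was lower at -0.83 ± 0.19 and Ifi30 at -1.01 ± 0.26 per the authors' deposited table. Ifi30 did not pass relative to the median gene. The shared transcription factor genes Rfx5 (0.53 ± 0.36), Rfxap (-0.40 ± 0.44) and Rfxank (1.13 ± 0.45) did not pass per the authors' deposited table. In transplanted TAµ the derived level of H2-Aa was 8.67, and transplanted µ differed from it by -3.27 ± 0.51 (adjusted p = 0.00121) per the authors' deposited table.

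The stretch before H2-Eb1 (GRCm38.p6, chr17:34305617-34305866, plus strand, RefSeq) is shown because H2-Eb1 had the largest fold change of this group, with CCAAT, the core of the Y box of class II promoters, in capitals on either strand.
H2-Eb1: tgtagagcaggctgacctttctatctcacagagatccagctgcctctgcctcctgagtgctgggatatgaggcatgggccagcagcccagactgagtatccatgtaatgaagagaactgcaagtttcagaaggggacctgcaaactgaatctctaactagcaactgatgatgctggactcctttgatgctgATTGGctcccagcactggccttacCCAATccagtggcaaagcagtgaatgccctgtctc
Of 12 class II pathway genes with a window 9 held a CCAAT (75%), against 38.6% of the table's genes and 37.4% of all windows.

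Of 20 genes of MHC class I presentation 4 were higher and the others did not pass, with a median of 0.22 per the authors' deposited table, and 6 were higher relative to the median gene. The higher genes were H2-T23 at 1.26 ± 0.27, the immunoproteasome subunit gene Psmb9 at 1.25 ± 0.31, the peptide-loading gene Tapbp at 0.79 ± 0.24 and the chaperone gene Calr at 0.53 ± 0.13 per the authors' deposited table. Beta-2 microglobulin, B2m, the partner of every class I chain, differed by 0.31 ± 0.23 (adjusted p = 0.358) per the authors' deposited table. Of 30 interferon response genes 3 were higher, Gbp2 at 1.76 ± 0.46, Zbp1 at 2.89 ± 0.88 and Ddx58 at 0.77 ± 0.26, and 1, Ifitm2, was lower at -3.99 ± 0.92 per the authors' deposited table. Set against the median gene, 6 interferon genes were higher and 1 lower. The called share of 13.3%, against 20.3% of all genes, is no result about this group, and the same holds for the class I genes.

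Several effector genes of phagocytes were higher. All 3 chains of C1q, which tags synapses and debris for removal, passed, with C1qa at 1.44 ± 0.27 (adjusted p = 0.000948), C1qb at 1.0 ± 0.20 (adjusted p = 0.00186) and C1qc at 0.67 ± 0.22 (adjusted p = 0.0356) per the authors' deposited table. Of 18 complement and Fc receptor genes 5 were higher and 1, C2 at -4.41 ± 1.01, was lower per the authors' deposited table, a called share of 33.3% against 20.3% of all genes, and 10 were higher and 1 lower relative to the median gene. C2 lay near the lowest levels in transplanted µ, at -3.76, so the size of its fall is uncertain. The others higher were the anaphylatoxin receptor gene C5ar1 at 1.18 ± 0.27 and the inhibitory Fc receptor gene Fcgr2b at 0.74 ± 0.25 per the authors' deposited table. Of 8 NADPH oxidase genes 4 were higher: Cybb, the organiser Ncf1 at 0.70 ± 0.15, Ncf4 at 1.67 ± 0.38 and the proton channel gene Hvcn1 at 0.85 ± 0.19 per the authors' deposited table. As deposited 50% of the 8 were called. Set against the median gene, 6 of the 8 were higher. The second membrane subunit, Cyba, differed by 0.21 ± 0.34 (adjusted p = 0.682) per the authors' deposited table.

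Pattern recognition receptors split, with 6 of 26 higher and 2 lower per the authors' deposited table (30.8% called, against 20.3% of all genes). Relative to the median gene, 8 were higher and 2 lower. Higher were Tlr3, a sensor of double-stranded RNA, at 1.43 ± 0.19 (adjusted p = 4.84e-05), Clec5a at 1.67 ± 0.19 (adjusted p = 1.11e-05), Tlr13 at 0.75 ± 0.16, Tlr4, the endotoxin receptor, at 0.67 ± 0.20, Tlr8 and Clec12a per the authors' deposited table. Lower were Tlr1 at -1.88 ± 0.44 and Clec4a1 at -3.91 ± 1.05 per the authors' deposited table. Of 33 receptor and adhesion genes 7 were higher and 6 lower per the authors' deposited table (39.4% called). Relative to the median gene, 9 were higher and 2 lower. The beta-2 integrin gene Itgb2, shared by several leukocyte integrins, was higher by 1.91 ± 0.17 (adjusted p = 1.3e-06) and Itgav by 1.16 ± 0.13 (adjusted p = 8.14e-06) per the authors' deposited table. The monocyte chemokine receptor gene Ccr2 had derived levels of 3.35 in transplanted µ and 1.18 in P10 TAµ and was higher by 2.16 ± 0.52 (adjusted p = 0.00686) per the authors' deposited table. Ccr1 (-1.87 ± 0.49), Itgax (-2.56 ± 0.60) and the tumour necrosis factor receptor gene Tnfrsf1b (-0.61 ± 0.19) were lower per the authors' deposited table.

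Of 26 cytokine and chemokine genes 1 was higher and 6 lower, with a median of -0.94 per the authors' deposited table, and 1 and 5 relative to the median gene. The called share was 26.9%, close to the 20.3% of all genes. The higher gene was Cxcl16, a membrane-bound chemokine, at 2.48 ± 0.25 (adjusted p = 3.79e-06) per the authors' deposited table. Beside Spp1, Igf1 and Csf1, the lower genes were the chemokine genes Ccl3 at -3.11 ± 0.69 and Ccl9 at -1.04 ± 0.29 and oncostatin M, Osm, at -3.96 ± 1.29 per the authors' deposited table.

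The genes of the immediate early response, a fast answer to stimuli that tissue dissociation also evokes, were lower in transplanted µ. Of 32 measured 18 were lower and 14 did not pass per the authors' deposited table (56.25% called, against 20.3% of all genes). Their median was -1.98, and 15 were lower and 1 higher relative to the median gene. Egr1 had derived levels of 7.27 in transplanted µ and 10.97 in P10 TAµ, with 6.33 in transplanted TAµ and 11.87 in adult control µ, and differed by -3.70 ± 0.29 (adjusted p = 3.5e-07) per the authors' deposited table. Zfp36, which destabilises cytokine messages, was lower at -3.43 ± 0.41 (adjusted p = 1.82e-05) and Fos at -3.21 ± 0.47 (adjusted p = 0.000118) per the authors' deposited table. Jun was lower at -1.88 ± 0.34, Junb at -1.94 ± 0.38, Ier2 at -3.19 ± 0.67 and the phosphatase gene Dusp1 at -2.49 ± 0.50 per the authors' deposited table. In Egr1, Fos and Jun the derived levels of both transplanted fractions lay below those of both untransplanted groups. Whether handling differed between the groups was not tested. Klf6 at -0.46 ± 0.26 and Dusp6 at -0.32 ± 0.33 did not pass per the authors' deposited table.

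Lysosomal genes changed in both directions, 9 higher and 9 lower of 47 per the authors' deposited table (38.3% called, against 20.3% of all genes). Relative to the median gene, 18 were higher and 5 lower. The protease genes split: Ctsh was higher by 1.45 ± 0.17 (adjusted p = 1.25e-05), Ctss by 1.20 ± 0.23 and Ctsd by 0.90 ± 0.18, while Ctsl was lower at -2.13 ± 0.20 (adjusted p = 1.6e-06) and Ctsb at -0.93 ± 0.17 (adjusted p = 0.000997) per the authors' deposited table. The glycosidase genes Gusb (-1.21 ± 0.16) and Gla (-4.13 ± 1.08) and the progranulin gene Grn (-0.73 ± 0.17) were lower, and Ppt1 (0.71 ± 0.18) and the sphingomyelinase gene Smpd1 (0.78 ± 0.20) higher per the authors' deposited table. Lamp1, a structural protein of the lysosome membrane, differed by -0.32 ± 0.18 (adjusted p = 0.224) per the authors' deposited table.

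Cholesterol synthesis genes lay below 0 in all 21 measured, with a median of -1.39. Of them 8 were lower per the authors' deposited table (38.1% called, against 20.3% of all genes), and 5 were lower relative to the median gene. Sqle, which makes squalene epoxide, was lower at -3.12 ± 0.61 (adjusted p = 0.00162), Cyp51 at -2.20 ± 0.45 (adjusted p = 0.00237) and the regulator gene Srebf2 at -1.55 ± 0.47 (adjusted p = 0.0273) per the authors' deposited table. Hmgcs1, an early enzyme of the pathway, differed by -0.41 ± 0.21 (adjusted p = 0.169) per the authors' deposited table. Of 26 other lipid genes 2 were higher and 6 lower per the authors' deposited table (30.8% called). Their median of -0.24 became 0.06 relative to the median gene, and 5 were then higher and 5 lower. Scd1, which desaturates fatty acids, was higher by 2.3 ± 0.39 (adjusted p = 0.000477), and the ubiquitin ligase gene Mylip by 1.16 ± 0.17 (adjusted p = 0.00011) per the authors' deposited table. The lipid droplet gene Plin2 was lower at -2.34 ± 0.61 (adjusted p = 0.012) per the authors' deposited table.

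Of 24 glycolysis genes 3 were higher and 3 lower per the authors' deposited table, whereas 7 were higher and 1 lower relative to the median gene. These 6 calls among 24 genes are a share close to the 20.3% of all genes. Ldha, which turns pyruvate into lactate, was lower at -1.13 ± 0.22 (adjusted p = 0.00158), and Pdk1, which keeps pyruvate from the mitochondrion, higher by 0.69 ± 0.21 (adjusted p = 0.0292) per the authors' deposited table. Gapdh was higher by 1.60 ± 0.38 per the authors' deposited table. The genome holds many pseudogene copies of Gapdh, and how reads that match several places were counted is not given, so its value is uncertain. Of 7 protein-coding genes of the mitochondrial genome 5 were higher (71.4% called), among them mt-Nd4 at 1.40 ± 0.31 and mt-Nd2 at 1.66 ± 0.38 per the authors' deposited table. The median of the 7 was 0.95, and all 7 were higher relative to the median gene.

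TGF-beta signalling genes were 7 higher and 3 lower of 24 per the authors' deposited table (41.7% called, against 20.3% of all genes). Relative to the median gene, 8 were higher and 3 lower. Higher were the receptor genes Tgfbr1 and Tgfbr2, the latter by 0.62 ± 0.17, the co-receptor gene Eng by 1.03 ± 0.18 (adjusted p = 0.000551) and the integrin genes Itgav and Itgb8 (1.87 ± 0.53), whose product frees the ligand per the authors' deposited table. The receptor genes Acvrl1 (1.0 ± 0.37), Acvr1 (0.10 ± 0.20), Bmpr1a (0.06 ± 0.22) and Bmpr2 (0.01 ± 0.24) did not pass per the authors' deposited table. Ski (0.76 ± 0.20) and Skil (1.0 ± 0.21), which restrain the Smad proteins, were also higher per the authors' deposited table. Lower were Lrrc33, which holds latent TGF-beta on microglia, at -1.21 ± 0.30 (adjusted p = 0.00805), Ltbp3 at -4.26 ± 1.10 and Tgfbr3 at -3.94 ± 1.16 per the authors' deposited table. The ligand gene Tgfb1 differed by 0.17 ± 0.19 (adjusted p = 0.539) per the authors' deposited table.

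Of 25 matrix genes 8 were lower and 1 higher per the authors' deposited table (36% called, against 20.3% of all genes). Relative to the median gene, 8 were lower and 3 higher. Among the genes lower as deposited were basement membrane genes, Nid1 at -7.50 ± 0.74, Nid2 at -2.85 ± 0.59, the perlecan gene Hspg2 at -2.81 ± 0.74 and the laminin gene Lamc1 at -1.29 ± 0.28, with Nid1 near the lowest levels in transplanted µ per the authors' deposited table. The laminin genes Lama2, at 2.03 ± 0.89 (adjusted p = 0.113), and Lamb2, at -0.58 ± 0.41 (adjusted p = 0.321), did not pass per the authors' deposited table. The higher gene was Tgfbi at 1.04 ± 0.23 (adjusted p = 0.00432) per the authors' deposited table. Sparc, a secreted microglial protein, differed by 0.53 ± 0.25 (adjusted p = 0.145) per the authors' deposited table. Of 13 iron genes 3 were higher, ferritin heavy chain Fth1 by 1.09 ± 0.26, ceruloplasmin Cp by 2.29 ± 0.60 and transferrin Trf by 1.07 ± 0.35, and 3 were lower, haem oxygenase Hmox1 at -0.95 ± 0.27, Slc11a2 at -1.24 ± 0.42 and Cd163 per the authors' deposited table. None of these 3 lower genes passed relative to the median gene, and 5 of the 13 were then higher. As deposited 46.2% of the iron genes were called.

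Transcripts typical of other brain cells also differed. Called as deposited were 60% of the astrocyte, 40% of the neuron, 46.2% of the oligodendrocyte and 50% of the endothelial genes, against 20.3% of all genes. Of 15 astrocyte genes 9 were higher and the others did not pass, with a median of 1.69 per the authors' deposited table, and 10 were higher relative to the median gene. The list's median derived level was 4.92 in transplanted µ, 4.37 in P10 TAµ, 6.76 in transplanted TAµ and 2.78 in adult control µ. The glutamate transporter gene Slc1a2 was higher by 2.83 ± 0.41 (adjusted p = 0.000123) and Slc1a3, which some microglia also express, by 1.70 ± 0.23 (adjusted p = 5.84e-05) per the authors' deposited table. Gfap, a defining astrocyte marker, had levels of 3.59 in transplanted µ and 2.99 in P10 TAµ, and Aqp4 of 4.49 in transplanted µ and 4.72 in P10 TAµ; neither passed. Of 15 neuron genes 3 were higher, Snap25 at 3.44 ± 0.38, Camk2a at 1.84 ± 0.36 and Syn1 at 2.06 ± 0.54, and 3 lower, Tubb3 at -3.24 ± 0.88, Stmn2 at -1.76 ± 0.55 and Meg3 at -2.69 ± 0.91 per the authors' deposited table. The higher genes belong to mature synapses, and Tubb3 and Stmn2 to growing neurites. Stmn2 and Meg3 did not pass relative to the median gene, and 4 neuron genes were then higher. Of 13 oligodendrocyte genes the myelin genes Mbp (3.07 ± 0.48), Mobp (4.05 ± 0.65) and Ermn (4.42 ± 0.94) were higher, and the progenitor genes Pdgfra (-4.28 ± 1.04) and Cspg4 (-4.99 ± 1.14) and Cldn11 (-3.15 ± 0.85) lower per the authors' deposited table, with 3 in each direction on both scales. Near the lowest levels in transplanted µ lay 3 of the 13 genes, and there the size of a fall is uncertain. Endothelial genes were lower in 3 of 6, Tie1 and Vwf of them near the lowest levels in transplanted µ, per the authors' deposited table. The 6 pericyte and smooth muscle genes split, with Pdgfrb lower at -5.93 ± 0.71 and Abcc9 higher by 2.90 per the authors' deposited table (33.3% called). Endothelial and pericyte counts were the same relative to the median gene. The part of such transcripts in the other differences was not tested.

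Genes of other blood lineages were counted in the same way. Called as deposited were 31.25% of the monocyte, 22.2% of the dendritic cell and 50% of the stem and progenitor genes. The dendritic cell share is close to the 20.3% of all genes. Of 16 monocyte genes 3 were higher, Lyz2, Ccr2 and Chi3l3, and 2 lower, among them Spn at -4.45 per the authors' deposited table, and 3 and 1 relative to the median gene. The monocyte median was -0.10, with 8 genes above 0 and 8 below. Of 12 neutrophil genes 1 was higher, Csf3r, and 1 lower, Cxcr2 per the authors' deposited table, a called share of 16.7% against 20.3% of all genes. The list's median was 2.16, the highest of the 38 lists, 10 of the 12 genes lay above 0, and 6 were higher at an unadjusted p under 0.05 per the authors' deposited table. Its median derived level was highest in adult control µ, at 4.78. It was 3.84 in transplanted µ, 2.35 in transplanted TAµ and 0.68 in P10 TAµ. The granule protein genes Camp, at 3.72 ± 1.38 (adjusted p = 0.0646), Ltf, at 3.57 ± 1.33 (adjusted p = 0.0657), and Ngp, at 3.54 ± 1.29 (adjusted p = 0.0593), missed the threshold per the authors' deposited table. With Csf3r they were higher relative to the median gene, 4 genes in all, and Cxcr2 was again lower. S100a8 at 3.15 ± 1.47 and S100a9 at 2.44 ± 1.53 had wide errors and did not pass per the authors' deposited table. Of 9 dendritic cell genes Zbtb46 was lower and Fscn1 higher at 0.66 ± 0.18 (adjusted p = 0.014) per the authors' deposited table, and 2 were higher and 1 lower relative to the median gene. The limma test called 0 of 3 T and NK cell genes and 0 of 5 erythroid genes, with 1 and 0 at an unadjusted p under 0.05 per the authors' deposited table. The B cell genes Cd79b (-2.04 ± 0.37) and Ebf1 (-4.10 ± 0.86) were both lower per the authors' deposited table. Of 6 stem and progenitor genes Cd34 was higher at 2.87 ± 0.23 (adjusted p = 3.7e-07) and Hlf at 3.22 ± 0.40 (adjusted p = 2.34e-05), and Myb was lower at -3.27 ± 0.87 per the authors' deposited table. Cd34 had derived levels of 7.70 in transplanted µ and 4.83 in P10 TAµ and 6.70 in adult control µ, a level between those of the compared groups. The part of other blood cells in the other differences was not tested.

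**Figure D3:**
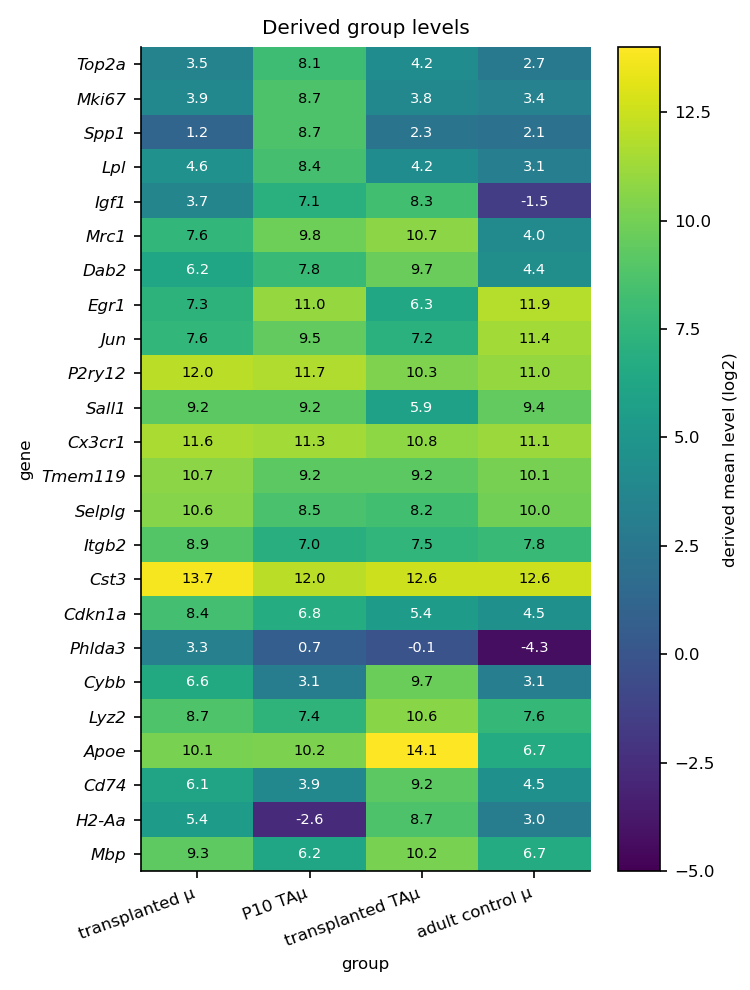
Each row is a gene, each column a group, and the number and colour give the derived mean log2 level, comparable along a row. Top2a, Mki67, Spp1 and Lpl stand highest in P10 TAµ, Tmem119, Selplg, Itgb2 and Cst3 highest in transplanted µ, and Cybb, Lyz2 and Apoe highest in transplanted TAµ.

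Apart from the lists, the 15 largest rises and falls among called genes of at least median expression were examined. That expression is an average over 17 libraries, 8 of them P10 TAµ and 3 transplanted µ. The filter therefore admits genes high in P10 TAµ more readily. Larger changes in both directions fell below it, among them H2-Eb1 at 8.17 ± 0.96 and Gpnmb at -8.27 ± 0.88 per the authors' deposited table. Within this selection the rises were led by Fam107a at 5.02 ± 1.16, Plekhb1 at 4.67 ± 0.60 and Rnf150 at 4.11, whose p was too small for a standard error to be recovered per the authors' deposited table. Mobp followed, then Kif5a, a kinesin motor of neurons, at 3.92 ± 0.45 and Rapgef4, an exchange factor switched on by cyclic AMP, at 3.83 ± 0.54 per the authors' deposited table. Fam107a and Plekhb1 were also higher in transplanted TAµ than in P10 TAµ, by 6.45 ± 1.16 and 5.29 ± 0.62 per the authors' deposited table. Neither differed detectably between the transplanted fractions. The others named here were Naalad2 (3.76 ± 0.47), Cybb, the cation channel gene Trpm2 (3.64 ± 0.35), Snap25, Lrrc3 (3.41 ± 0.21), Mlph (3.29 ± 0.21), Ildr2 (3.28 ± 0.27) and the mitochondrial tRNA gene mt-Tp (3.23 ± 0.45) per the authors' deposited table. Mlph, which tethers vesicles to a myosin motor, stood at 6.72 in transplanted µ and 7.12 in adult control µ against 3.43 in P10 TAµ and 3.09 in transplanted TAµ on the derived log2 scale. Naalad2, a carboxypeptidase of the glutamate carboxypeptidase family, had levels of 6.15 and 5.87 against 2.39 and 1.37 in the same order of groups.

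Of the 15 largest falls under the same filter most were cell division genes. These were Mcm5, Atad5 (-5.21 ± 1.16), which takes the sliding clamp off replicated DNA, the spindle genes Tpx2 (-4.89 ± 0.74), Tacc3 (-4.69 ± 0.70) and Kif11 (-4.66 ± 0.97), the cytokinesis genes Anln (-4.60 ± 0.89) and Cit (-4.58 ± 1.23), Cenpf (-4.30 ± 0.49), Mki67 and Top2a per the authors' deposited table. The others were Spp1, Klf2, Nes, Igfbp4 and Fabp7. Nes, the intermediate filament nestin of neural progenitors, was lower at -4.69 ± 0.83 (adjusted p = 0.0007), and Fabp7, a fatty acid carrier of radial glia, at -4.62 ± 0.67 (adjusted p = 0.000112) per the authors' deposited table. Igfbp4, which binds insulin-like growth factors, had derived levels of 3.76 in transplanted µ and 8.38 in P10 TAµ and was lower at -4.62 ± 0.45 (adjusted p = 2.88e-06) per the authors' deposited table.

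**Figure D4:**
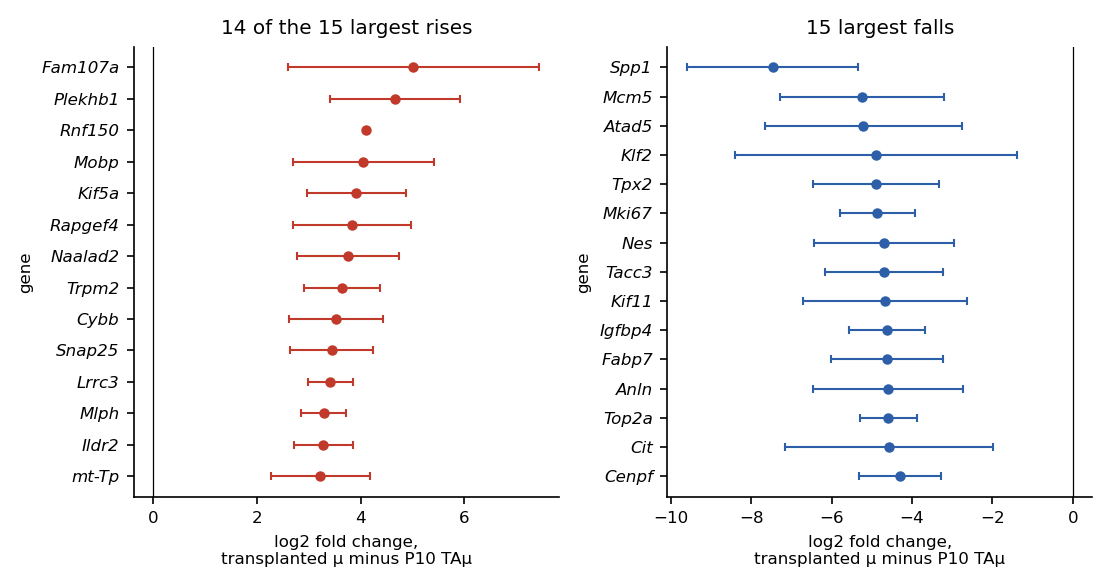
14 of the 15 largest rises (left) and 15 largest falls (right) among called genes of at least median average expression, as log2 fold changes, transplanted µ minus P10 TAµ, on the x axes; bars are 95% intervals from the recovered standard errors, and Rnf150 has none. Rises run from 3.23 for mt-Tp to 5.02 for Fam107a and falls from -4.30 for Cenpf to -7.47 for Spp1.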

How the data were processed

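The RNA of sorted brain myeloid cells was amplified (Ovation RNA-Seq System V2, NuGEN) and sequenced as single-end reads, per the labels' protocols. STAR 2.3.0 with mm10, HTSeq 0.5.3 and limma are named in the submitters' processing notes. Normalization, gene filter, strand setting and limma design are not stated in any source used here, and depth per library is unknown. The file is a table of comparisons without library values. The authors computed the log2 average expression, the log2 fold changes and the p-values with their Benjamini-Hochberg adjustment in limma, per the file headers. The score columns, a moderated F and a call, were deposited by the authors, and only F was used here.

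Fold changes were turned to transplanted µ minus P10 TAµ. The headers name 2 groups per comparison without a sign. Reading each as first-named minus second-named gave 4 group levels with common lower limits, the lowest -5.11, -4.74, -5.23 and -5.52 (transplanted µ, transplanted TAµ, adult control µ, P10 TAµ), against -6.98, -8.57, -8.23 and -5.04 when reversed, so the first reading was used. The levels take the average expression as the mean over the 17 libraries. Fold changes closed over the groups within 1e-05. Standard errors were recovered from fold change and p with 18 degrees of freedom, found from the F statistics of 9369 genes. Very small p-values were rebuilt from the rank of the adjusted p, which left 2 genes without an error. The median standard error was 0.47, and it limits what could be called: 2903 genes differing by at least 1 log2 unit did not pass. The scripts were tested on simulated data.

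The members, the 38 gene lists and the tests were chosen with earlier results of these data known. Of 805 listed genes 708 were measured, matched by symbol or older symbol, and 322 were called. Named genes are the markers, the 15 largest called rises and falls above the median expression of 3.13 (predicted genes and clone names left out), for every list the 3 higher and 3 lower members of smallest adjusted p, and the 2 most expressed members that did not pass. Further members were named to complete a gene family or a count, after their values were seen. A few genes that the rule names are not reported here. Promoter sequences are from RefSeq, build GRCm38.p6, for the 2 members of 4 lists with the smallest adjusted p among called members that have a window in the RefSeq table and take the direction of most calls, of which 4 are printed. Python 3.11.15, numpy 2.4.6, pandas 2.3.3, scipy 1.17.1 and matplotlib 3.10.9 were used. Alternatives were a threshold of 0.01, a minimum log2 change of 1, expression filters at the first quartile and the median, Bonferroni adjustment, centring on the median fold change, 1 entry per symbol and, added after the data were seen, leaving out genes near the lowest levels.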

Additional observations from a re-analysis of the deposited data

Results flagged for a closer look

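Among the named genes, 6 were called in opposite directions in transplanted µ and transplanted TAµ against the same P10 TAµ libraries. In these 6 the direct comparison of the transplanted fractions was called too. Only genes named by the rule above, and a few picked after their values were seen, were searched. The number over all genes was not counted. The 2 comparisons with P10 TAµ share the P10 group, so the direct comparison is the test of the difference. Sample titles pair the libraries of the transplanted fractions by a shared letter. Whether each pair came from the same mouse is not stated, nor whether the limma design allowed for it. The cell cycle inhibitor gene Cdkn1a was 2.94 log2 units higher in transplanted µ than in transplanted TAµ (limma adjusted p = 0.0026), at 1.59 ± 0.30 and -1.35 ± 0.49 against P10 TAµ per the authors' deposited table. The TGF-beta co-receptor gene Eng was 2.37 higher (adjusted p = 0.00121), at 1.03 ± 0.18 and -1.34 ± 0.36, and the actin-bundling gene Fscn1 2.87 higher (adjusted p = 7.33e-05), at 0.66 ± 0.18 and -2.21 ± 0.30 per the authors' deposited table. Lower in transplanted µ were the growth factor gene Igf1, with a difference of -4.61 (adjusted p = 7.33e-05), at -3.42 ± 0.47 and 1.20 ± 0.31 against P10 TAµ, the mannose receptor gene Mrc1, with -3.12 (adjusted p = 7.82e-05), at -2.24 ± 0.29 and 0.88 ± 0.29, and the endocytic adaptor gene Dab2, with -3.48 (adjusted p = 7.58e-05), at -1.62 ± 0.34 and 1.86 ± 0.31, all per the authors' deposited table.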

How the results depend on the processing

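Of the 2792 calls between transplanted µ and P10 TAµ, 1373 passed a threshold of 0.01 and 281 passed Bonferroni adjustment. With the p-values adjusted anew among genes of at least median expression, 1634 genes were called. The 1051 higher calls became 554 at 0.01, 635 with a minimum log2 change of 1, 118 with Bonferroni adjustment and 1954 when fold changes were centred on their median. The 1741 lower calls became 819 at 0.01, 1116 with the first-quartile expression filter, 804 with the median filter and 163 with Bonferroni adjustment. Called list genes numbered 322 as deposited, 196 with the median filter and 63 with Bonferroni adjustment. The cause was not tested beyond the construction of each alternative (a stricter cut or fewer genes tested); for centring, the cause was not tested. No named gene called as deposited changed direction with centring or Bonferroni adjustment, while 14 that were not called changed sign with centring. With centring, 15 named genes lost their call and 19 gained one. With Bonferroni adjustment 108 lost theirs. Leaving out genes near the lowest levels in either group kept 13050 genes and 2226 calls, and moved 8 of 76 list counts by more than 1.5 times, an alternative chosen after seeing the data. No paired analysis was possible because the table holds no values per library, and for the same reason no library was left out in turn. What 1 library contributes to a value was therefore not tested.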

Other observations

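Several gene families outside the lists, grouped by symbol prefix after the table was seen, were counted in the same comparison, in which 20.3% of all genes were called. Of 48 histone genes 23 were lower and 1, the replication-independent H3f3b, was higher by 0.90, with a median of -2.43 per the authors' deposited table. Of 18 centromere protein genes 13 were lower, with a median of -4.06, and of 33 kinesins 15 were lower and 2 higher per the authors' deposited table. The kinesins spanned -9.35 for the mitotic motor Kif14 to 3.92 for the neuronal motor Kif5a per the authors' deposited table. Of 83 cytosolic ribosomal protein genes 14 were lower and 1 was higher, with 75 below 0 and a median of -0.70, or -0.40 relative to the median gene, per the authors' deposited table. That is a called share of 18.1%, close to the 20.3% of all genes. These genes have many near-identical copies in the genome, and how the counting divided their reads is not given. Of 14 mitochondrial tRNA genes 12 were higher, with a median of 3.19, whereas the 7 protein-coding mitochondrial genes had a median of 0.95 per the authors' deposited table. Of 45 Rab genes, which direct vesicle traffic, 10 were higher and 1 lower, with a median of 0.22, or 0.51 relative to the median gene, per the authors' deposited table. Of 44 potassium channel genes 8 were higher and 2 lower, although the median was -0.37, per the authors' deposited table. The called shares of Rab genes (24.4%) and potassium channel genes (22.7%) were both close to the 20.3% of all genes. Of 44 complex I genes encoded in the nucleus 1 was higher and 1 lower per the authors' deposited table.

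Genes that report on sex and RNA quality were read after their values were seen. Xist, the X inactivation RNA, differed by 2.97 ± 2.57 (adjusted p = 0.429), and the Y-linked gene Ddx3y by -2.35 ± 3.33 (adjusted p = 0.643) per the authors' deposited table. Their standard errors are several times the median of 0.47. The labels used here give no sex, and the spread of these genes over libraries was not analysed here. Malat1, a nuclear RNA, differed by -0.96 ± 0.40 (adjusted p = 0.0966) and the paraspeckle RNA Neat1 by -0.85 ± 0.68 (adjusted p = 0.391) per the authors' deposited table.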
